A study of Equus caballus with 4 samples.

Results

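The genes described here encode RNA-binding proteins that control how long an mRNA lasts and how often it is translated. Their mRNA was measured in equine satellite cells, the resident stem cells of skeletal muscle, while these were differentiating. The 9 genes were ELAVL1, GRSF1, RBPMS, SAMD4A, DDX6, DAZAP1, ZFP36, ZFP36L1 and PUM2. They were selected by function and with mean ratios of these same arrays known, so their ratios are given as a description with no test. Every gene probe carrying exactly one of these names was taken. This gave 27 probes for 8 genes, out of 43603 gene probes on the array. ZFP36 was not analysed here, since no gene probe used here carried that name.

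Both groups were satellite cells of the m. semitendinosus on day 3 of differentiation. Treated cells had 0.125 µM gamma-oryzanol (GO), which is made up of ferulic acid esters of rice bran sterols, for 24 h, with 3 mM hydrogen peroxide (H2O2) present for the last 1 h. Control cells had no GO; whether they had H2O2 is not in the labels, and the study says that they had. The methods describe muscle of 6-month-old stallions and the choice of the best primary cell line, so the cultures may come from 1 animal. Treated RNA (red dye, Cy5) and control RNA (green dye, Cy3) were hybridised together on each of 4 arrays of 1 slide. No array had its dyes exchanged, so dye and treatment cannot be told apart. The labels call the arrays biological replicates, yet they number the control RNA alike on all 4, and p-values therefore measure only the spread between these arrays. All values below are log2 ratios of treated over control unless stated otherwise, and a positive value means more signal with GO and H2O2.

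A cytoplasmic mRNA is usually destroyed in steps. Its poly(A) tail is shortened, its cap is removed, and exonucleases then digest it from either end. Proteins bound to the 3′ untranslated region set the pace of these steps. ELAVL1, also called HuR, binds AU-rich elements and protects its targets, among them mRNAs of myogenic factors, whereas ZFP36 and ZFP36L1 bind the same kind of element and recruit the deadenylation machinery. PUM2 and SAMD4A (Smaug) repress the mRNAs they bind, and DDX6 is an RNA helicase that links repression to decapping in processing bodies. RBPMS and DAZAP1 bind RNA through RNA recognition motifs, and RBPMS controls splicing in smooth muscle. GRSF1 binds G-rich RNA, and its best known form acts in mitochondrial RNA granules.

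The 27 probes lay at 12 positions, where probes that overlap or adjoin are counted as 1 position. Several genes had probes at separate positions that gave different ratios, so the probe sequences are shown first, as the letters that each value stands for. The first 30 bases of a 60-base probe are printed 5′ to 3′, except for the second downstream probe of DDX6, where the last 30 bases hold a run of 6 G. Capitals mark that run, or the bases shared by all overlapping probes of a position. Upstream and downstream refer to the direction of the gene.
RBPMS upstream, first of 3 probes: AGATTTGTCTCTGGGAATGTgtttgtaaca
RBPMS downstream: tgatcccttcaagactttgccacagcctct
SAMD4A upstream, first of 5 probes: tcccTCTCCCATTTTGATTTTGTGAGAGCG
SAMD4A downstream, first of 3 probes: agTGAAGACAGAGTCGAAATTGAAGAGATC
DDX6 upstream, brighter probe: aggaatttaccttttttgttccacttgttt
DDX6 downstream, first probe: gtatcaacttttgaccaaaaaatattgccc
DDX6 downstream, second probe: agggaggggtGGGGGGagggaatttaaaag
ELAVL1, last of 5 probes: tgtaCAACTCATTTTGCGCCAATTCTCACA
unnamed probe downstream of ELAVL1: cctgcaagttctcttcataactgccttgac
GRSF1, brighter probe: aagctccagttttttagcagcagctgctag

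Positions are those of the array annotation, in build EquCab1. The RBPMS probes lay on the minus strand at chr27:13284056-13284155 (upstream) and chr27:13259066-13259125 (downstream). SAMD4A was probed on the plus strand at chr24:2621327-2621390 and at chr24:2622867-2622928, the latter taken from a record of a 3′ untranslated region. The DDX6 probes lay on the minus strand at chr7:23192074-23192193 (upstream) and chr7:23189984-23190103 (downstream), and the 5 ELAVL1 probes on the minus strand at chr7:1933756-1933819. GRSF1 was probed at chr3:35179838-35179957. PUM2 was probed at chr15:71552771-71552830 and chr15:71553932-71553989. The single probes of DAZAP1 (chrUn:329791345-329794117) and ZFP36L1 (chr24:14513410-14515891) mapped across a gap longer than their 60 bases. Exons and introns were not assigned, for lack of a gene annotation in EquCab1.

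Of the 27 probes, 26 were well above background on all 4 arrays in at least one channel and entered the fit. Among them 14 passed a limma adjusted p of 0.05 over all 24230 probes tested, 8 higher and 6 lower with GO and H2O2. In that fit, 17.1% of all probes passed, 9.49% higher and 7.59% lower. Since the genes were selected on this contrast, nothing is read from the excess over that share. The sign was the same on all 4 arrays for 23 of the 26 probes, beside 43.8% of all probes tested. The probe counts also weigh genes unequally, because SAMD4A alone had 8 probes and ELAVL1 had 5. Without replicate 1, replicate 3 or replicate 4, 0 of the 26 probes passed the limma adjusted p (16, 17 and 17 had an unadjusted p under 0.05), and without replicate 2, 13 passed.

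**Figure D1:**
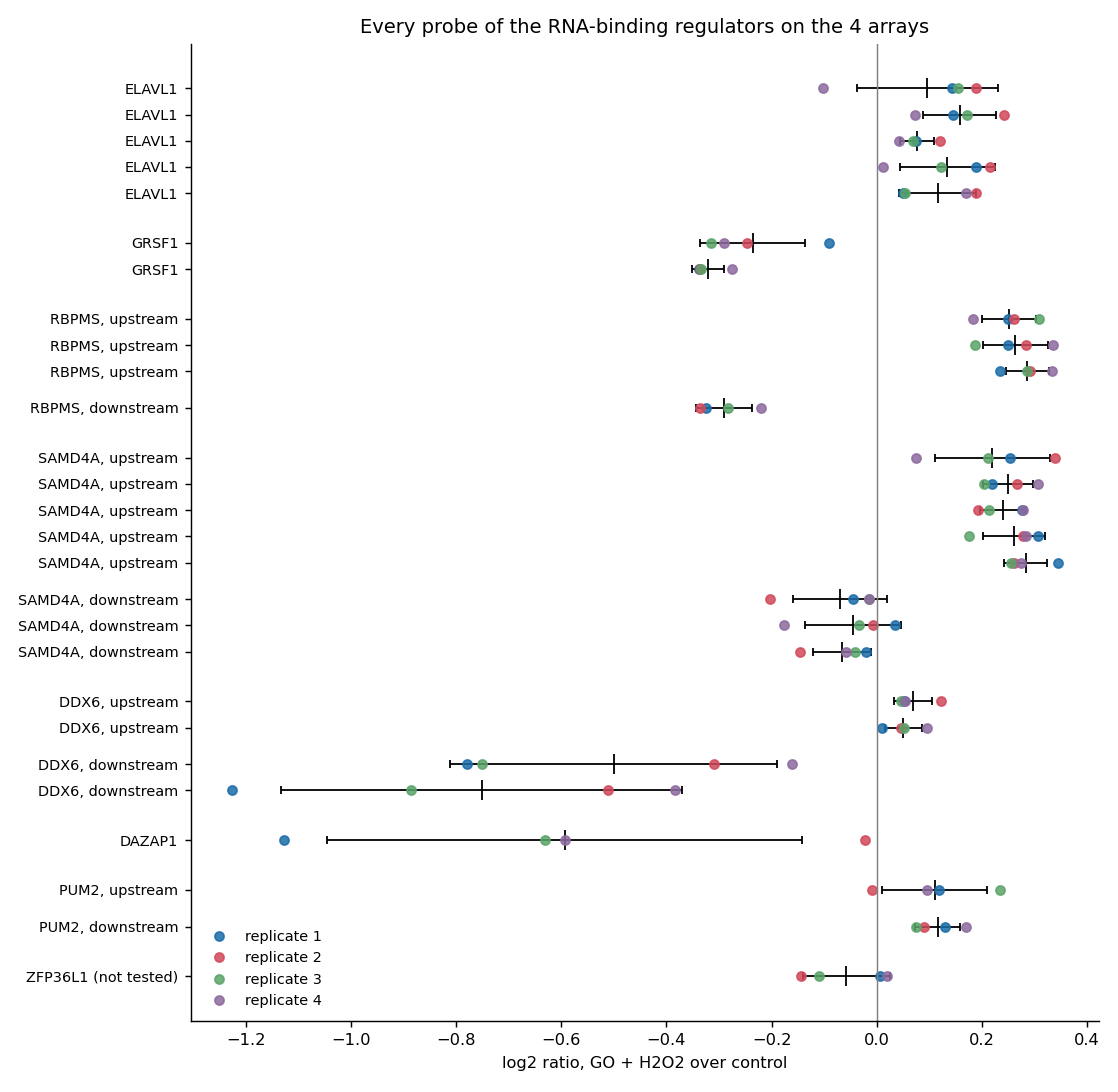
Log2 ratio of treated over control (horizontal axis) for all 27 probes, 1 line per probe, with 1 coloured point per array and a black bar for the mean ± SD of the 4 arrays. The upstream and downstream probes of RBPMS lie on opposite sides of 0, and the widest spread is that of DDX6 downstream and of DAZAP1.

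DDX6, the decapping helicase, had the lowest position mean of the 8 genes, and only at 1 of its 2 positions. At the downstream position, the first probe read −0.78, −0.31, −0.75 and −0.16 on replicates 1 to 4. The adjoining second probe read −1.23, −0.51, −0.89 and −0.38. Every array was below 0 at both probes, with replicates 1 and 3 lowest. The position mean was −0.63 ± 0.34 (SD, n = 4), a signal 1.54-fold lower with treatment. At the upstream position, 1970 bases away, the mean was 0.06 ± 0.02. Its brighter probe read 0.01, 0.05, 0.05 and 0.09, and its dimmer probe 0.05, 0.12, 0.05 and 0.05. Thus the upstream values were all slightly above 0 while the downstream values were all below it. The downstream position was lower than the upstream one by 1.03, 0.49, 0.87 and 0.35 on replicates 1 to 4, and their difference was −0.69 ± 0.32.

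The size of the DDX6 downstream ratio depended on how the signals were corrected. The second downstream probe, with the run of 6 G, had a mean of −0.75 ± 0.38 here and −1.17 with the deposited processed signals. Its treated log2 signal, after scaling of both channels, was 7.36, 7.42, 7.40 and 8.11, and its control log2 signal was 8.59, 7.93, 8.28 and 8.49. Replicate 4 had the highest treated signal and replicate 2 the lowest control signal, so the 2 channels overlapped across arrays although they differed within each. Among all probes tested, 113 held a run of at least 6 G, and their median ratio was 0.00867.

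DAZAP1, an RNA-binding protein that shuttles between nucleus and cytoplasm, had the second lowest position mean. Its only probe read −1.13, −0.02, −0.63 and −0.59 (mean −0.59 ± 0.45, n = 4, 1.51-fold lower). The ratio on replicate 2 was near 0 while the other arrays were well below it. The control channel varied more than the treated one. Control log2 signals were 9.33, 8.27, 8.79 and 9.24, with an SD of 0.49. Treated log2 signals were 8.20, 8.24, 8.15 and 8.65, with an SD of 0.23. Over all probes tested, the median SD was 0.0967 in the control channel and 0.0997 in the treated channel. With the deposited processed signals the mean ratio of DAZAP1 was −0.80, the lowest of its alternatives, and without replicate 1 it was −0.42, the highest. The whole 60-base probe is shown because its mapping spans more bases than it holds, which places it across at least 1 junction:
DAZAP1: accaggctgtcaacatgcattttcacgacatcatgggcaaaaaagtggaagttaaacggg

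RBPMS gave ratios of opposite sign at its 2 positions. The 3 overlapping upstream probes, which share only 20 bases, read 0.25, 0.26, 0.31 and 0.18 for the first, 0.25, 0.28, 0.19 and 0.33 for the second, and 0.23, 0.29, 0.29 and 0.33 for the third. Their position mean was 0.27 ± 0.02 (n = 4, 1.20-fold higher). The downstream probe, 24930 bases away, read −0.33, −0.34, −0.28 and −0.22. Its mean was −0.29 ± 0.05 (1.22-fold lower). The groups of values did not overlap, and the downstream minus upstream difference was −0.57, −0.62, −0.54 and −0.50 on replicates 1 to 4 (mean −0.56 ± 0.05). The array annotation links both positions to the name RBPMS through different transcript records.

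SAMD4A, a translational repressor that recruits deadenylases to stem-loop structures, was higher with treatment at its upstream position only. The 5 upstream probes are shifted by 1 base each and share 56 bases, so they are near-copies of one measurement. Their means ran from 0.22 to 0.28, and the average over them was 0.28, 0.27, 0.21 and 0.24 on replicates 1 to 4 (mean 0.25 ± 0.03, 1.19-fold higher). The 3 downstream probes, which share 58 bases, averaged −0.01, −0.12, −0.03 and −0.08 (mean −0.06 ± 0.05). None of these 3 probes passed the threshold, and 2 of them had a mean above 0 under at least 1 alternative (at most 0.03). Their log2 signals were between 6.98 and 7.21 on average over both channels. This is the dim end of the tested member probes, which reached 11.6. With a normexp offset of 0 their means were −0.12, −0.08 and −0.11. The part of low signal in their ratios was not tested. The 2 positions are 1476 bases apart, and the downstream one was lower than the upstream one on every array, by 0.29, 0.39, 0.24 and 0.33.

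**Figure D2:**
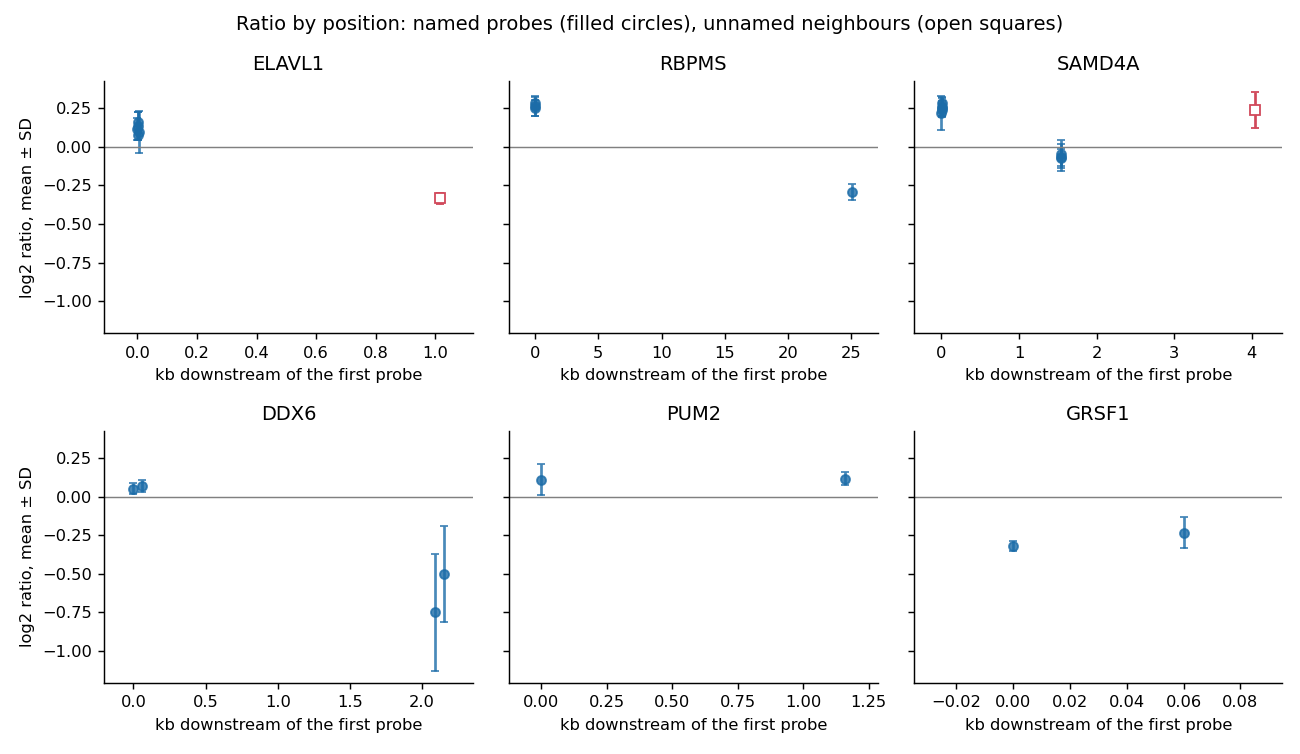
Mean log2 ratio ± SD of 4 arrays (vertical axis) against distance in kb downstream of the first probe of the gene, with filled circles for probes named after the gene and open squares for unnamed probes nearby on the same strand. RBPMS, SAMD4A and DDX6 are lower at the downstream named position, and PUM2 is level.

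PUM2, the remaining gene with separate positions, did not show such a gap. PUM2 is a Pumilio protein that binds a short motif in 3′ untranslated regions and recruits deadenylases. Its upstream probe read 0.12, −0.01, 0.23 and 0.10 (mean 0.11 ± 0.10), and its downstream probe read 0.13, 0.09, 0.07 and 0.17 (mean 0.12 ± 0.04). The difference between them was 0.00606 ± 0.12, with no common sign over the arrays. Neither probe passed the threshold.

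To place these gaps, the same difference was taken for every gene with at least 2 separate tested positions on one strand, a comparison added after the values of the members were seen. There were 881 such genes, and the most downstream position was compared with the most upstream one. The downstream position was lower in 48.0% of them, the median difference was 0.0066 and the median absolute difference was 0.0806. A larger absolute difference than that of DDX6 was found in 0.341% of these genes, than that of RBPMS in 0.568%, than that of SAMD4A in 3.06% and than that of PUM2 in 96.4%. Probes past the threshold in both directions were found in 4 genes (0.454%), namely RBPMS, FKBP5, GOSR1 and POGLUT1. Their downstream minus upstream differences were −0.56 ± 0.05, 0.63 ± 0.26, −0.30 ± 0.13 and 0.49 ± 0.18. FKBP5 (a chaperone of steroid receptors) and POGLUT1 (a glycosyltransferase of Notch) were higher downstream, and GOSR1 (a Golgi SNARE protein) was lower. These shares describe the genes on these arrays and are no test of the members, which were selected on the same ratios.

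**Figure D3:**
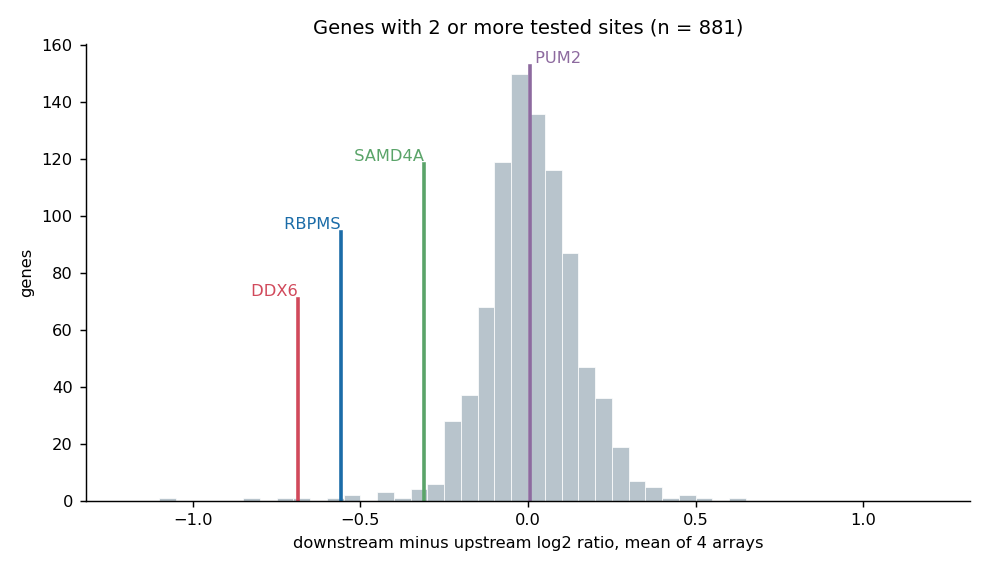
Number of genes (vertical axis) by the downstream minus upstream difference in log2 ratio, mean of 4 arrays, in steps of 0.05 for the 881 genes with at least 2 tested positions, with coloured lines at 4 of the RNA-binding regulators. DDX6, RBPMS and SAMD4A lie left of most genes and PUM2 lies at the middle, and the height of a line has no meaning.

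ELAVL1 (HuR), which stabilises mRNAs of myogenic factors, had small positive ratios. Its 5 probes are shifted by 1 base each and share 56 bases. The average over them was 0.12, 0.19, 0.11 and 0.04 on replicates 1 to 4 (mean 0.12 ± 0.06, n = 4, 1.08-fold higher). Probe means ran from 0.08 to 0.16, and none of the 5 passed the threshold. One probe read 0.14, 0.19 and 0.16 on replicates 1 to 3 and −0.10 on replicate 4, although its neighbour displaced by 1 base read 0.07 there. The other 4 probes were above 0 on every array.

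Just downstream of the ELAVL1 probes lay 1 probe without a gene symbol, at chr7:1932745-1932804 on the same strand, 951 bases away. It was designed on an expressed sequence tag, and it was found by searching 5000 bases on either side of each gene after the ratios of the members were known. This probe read −0.35, −0.29, −0.32 and −0.37 (mean −0.33 ± 0.03, limma adjusted p = 0.0129). Its treated and control signals did not overlap across arrays, with log2 signals of at most 12.7 when treated and at least 12.8 in the control. Whether it belongs to an ELAVL1 transcript is not established by the annotation used here. A probe of the same kind lay 2443 bases downstream of SAMD4A (chr24:2625372-2625431) and read 0.39, 0.23, 0.23 and 0.11 (mean 0.24 ± 0.11, limma adjusted p = 0.0327), close to the upstream position of that gene and unlike the named downstream one. The probe 2615 bases downstream of ZFP36L1 (chr24:14510735-14510794) read −0.05, −0.16, 0.38 and 0.10 (mean 0.07 ± 0.23, limma adjusted p = 0.609), with no common sign. Its mean log2 signal was 12.3, against 6.59 for the named ZFP36L1 probe. Whether it belongs to a ZFP36L1 transcript is likewise not established.

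GRSF1, whose protein handles G-rich RNA in mitochondrial granules, was lower at both of its probes. The dimmer probe read −0.09, −0.25, −0.31 and −0.29 (mean −0.24 ± 0.10). The adjoining brighter probe read −0.34, −0.34, −0.33 and −0.28 (mean −0.32 ± 0.03), the smallest SD of the 26 tested probes. All 8 values were below 0, and the average over both probes was −0.28 ± 0.05, or 1.21-fold lower. The log2 signals of the brighter probe did not overlap, with 10.9 to 11.1 when treated and 11.2 to 11.4 in the control. By that measure 14.2% of all probes tested had channels that did not overlap across arrays.

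The only named probe of ZFP36L1, a decay factor that opposes ELAVL1 on AU-rich elements, was not well above background on any array in either channel. It was therefore not tested, and its ratios of 0.01, −0.14, −0.11 and 0.02 carry no order. The probe was:
ZFP36L1: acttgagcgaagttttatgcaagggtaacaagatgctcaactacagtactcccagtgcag

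**Figure D4:**
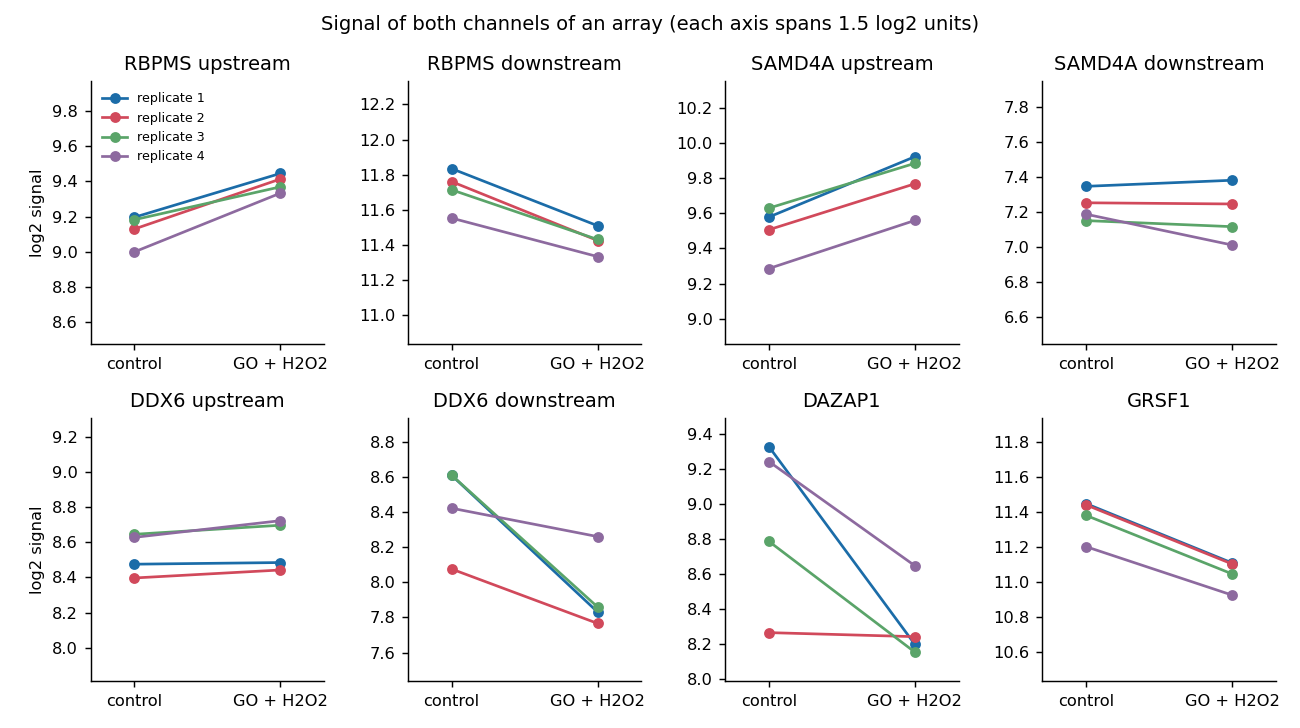
Log2 signal of the control and the treated channel (vertical axis, each panel spanning 1.5 log2 units) for the brightest probe of a position, with 1 line per array. The lines of RBPMS rise upstream and fall downstream, those of DDX6 are level upstream and fall downstream, and those of DAZAP1 start from control signals between 8.27 and 9.33.

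Related genes were examined by role, from lists chosen for function with earlier results of these arrays known. Of 186 genes in 9 lists, 163 had a probe of that name and 137 were tested, each through its brightest tested probe. In all, 32 (23.4%) passed the limma adjusted p of 0.05, 13 higher and 19 lower. Of all probes tested 17.1% passed, 9.49% higher and 7.59% lower. The median ratio of the 137 genes was −0.02, and that of all probes tested was 0.00296. With the deposited processed signals 21 genes passed. Without replicate 1, 3 or 4 none passed (0 genes by limma, and 42, 50 and 46 at an unadjusted p under 0.05), and without replicate 2, 24 passed. Among list genes named below for the smallest adjusted p in their list, none changed sign under the alternatives run. Of these, 3 moved by over 1.5 times, and their values are given with them. This statement leaves out FXR2, CYFIP1, HMGB1, XRN2 and PELO, and cell markers other than MYOG. In 7 list genes the brightest probe did not pass while another did, so the counts below rest on the choice of probe. Overlap between probes of a list gene was not examined, so tallies of its probes may not be separate measurements.

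Among binders of AU-rich elements and related sites, the partners and rivals of ELAVL1, 2 of 14 tested genes fell and 0 rose by their brightest probes. This was 14.3%, beside 17.1% of all probes tested. The list median was −0.00402 and turned to 0.00171 with median centring. FXR2, a relative of the fragile X protein, is counted as not passing by its brightest probe (mean 0.17, limma adjusted p = 0.0601), yet its 5 probes were all above 0 (means 0.17 to 0.20) and 4 passed. The 2 that fell were TIAL1, a translational silencer found in stress granules (−0.29, −0.28, −0.21 and −0.32, mean −0.27 ± 0.05, limma adjusted p = 0.0166), and YBX1, a cold shock domain protein that packages mRNA (mean −0.18 ± 0.04, adjusted p = 0.0300). With median centring the mean of YBX1 was −0.000179, so that its fall was not seen under that scaling. Of the paralogues of the members, ELAVL2, ELAVL3, ELAVL4, RBPMS2 and SAMD4B had a probe but none well enough above background to be tested, and ZFP36L2 had no probe of that name.

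In deadenylation, the step that ZFP36L1, PUM2 and SAMD4A recruit, 3 of 21 tested genes fell and 0 rose (list median −0.05). This was 14.3%, beside 17.1% of all probes tested. PABPC1, the main poly(A) binding protein, read −0.45, −0.46, −0.21 and −0.33 (mean −0.37 ± 0.12, adjusted p = 0.0166). The ribonuclease PARN had a mean of −0.15 ± 0.04 (adjusted p = 0.0467), which was −0.03 with no background correction and −0.23 with a normexp offset of 0. CNOT2, a scaffold of the CCR4-NOT complex, fell at 5 of 5 probes, and its brightest had a mean of −0.14 ± 0.02 (adjusted p = 0.0485).

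In decapping and processing bodies, where DDX6 acts, 1 of 21 tested genes rose and 2 fell (list median −0.01). This was 14.3%, beside 17.1% of all probes tested. AGO1, an Argonaute protein of the miRNA machinery, read 0.26, 0.12, 0.18 and 0.25 (mean 0.20 ± 0.06, adjusted p = 0.0290) and passed at 4 of 5 probes. LSM5, of the ring that binds deadenylated mRNA ends, fell by 0.30 ± 0.18 (adjusted p = 0.0379); all 10 of its probes were below 0 but 3 passed. DCP2, the decapping enzyme itself, read −0.20, −0.05, −0.27 and −0.38 (mean −0.22 ± 0.14, adjusted p = 0.0472).

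In a list of the exosome, its partners and other decay factors, 2 of 17 tested genes rose and 5 fell (41.2%, beside 17.1% of all probes tested). Among the 5 were XRN2 (mean −0.18, limma adjusted p = 0.0274) and PELO (mean −0.16, limma adjusted p = 0.0491), which do not act 3′ to 5′ in the exosome. A mean below 0 was found in 15 of the 17, a count for which no share over all probes was taken. The list median was −0.12, beside 0.00296 for all probes tested. WDR61 and TTC37, both parts of the SKI complex that feeds mRNA to the exosome, fell by 0.27 ± 0.04 (adjusted p = 0.0166) and by 0.27 ± 0.09 (adjusted p = 0.0211), at 2 of 2 probes each. The exosome subunit EXOSC3 fell by 0.22 ± 0.05 (adjusted p = 0.0226), at 3 of 3 probes. Other subunits of the same complex moved the other way: EXOSC5 rose by 0.20 ± 0.07 (adjusted p = 0.0312) and EXOSC4 by 0.22 ± 0.11 (adjusted p = 0.0340), the latter at 1 of 2 probes (other mean 0.15). In nonsense-mediated decay, the removal of mRNAs with early stop codons, 1 of 12 rose and 1 fell (16.7%, list median 0.03). These were the kinase SMG1 (mean 0.25 ± 0.07, adjusted p = 0.0205) and the exon junction protein RBM8A (mean −0.21 ± 0.11, adjusted p = 0.0414), which passed at 4 of 8 probes (means −0.23 to −0.11).

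The list of translational repressors and paralogues of the members, which also holds splicing factors such as RBFOX1, had the highest list median, 0.16. By their brightest probes 6 of its 11 tested genes were higher and 0 lower (54.5%, beside 17.1% of all probes tested). CPEB4 and CPEB1, which control poly(A) tail length in the cytoplasm, rose by 0.30 ± 0.07 (adjusted p = 0.0166) and 0.28 ± 0.09 (adjusted p = 0.0203). CPEB4 passed at 2 of 3 probes, whose means ran from 0.00127 to 0.30, and the mean over its probes was 0.16. RBFOX1, a splicing factor of muscle and neurons, read 0.44, 0.19, 0.31 and 0.35 (mean 0.32 ± 0.10, adjusted p = 0.0181). Because 11 of the 22 list genes with a probe were not tested, this count covers the brighter part of the list. CYFIP1, a translational repressor of the fragile X protein complex, had a mean of −0.07 at its brightest probe (limma adjusted p = 0.307), but all 10 of its probes were below 0 and 4 passed (lowest mean −0.18). Among stress granule proteins 2 of 10 rose and 0 fell (20%, list median 0.02). G3BP1, a core protein of these granules, read 0.19, 0.28, 0.19 and 0.06 (mean 0.18 ± 0.09, adjusted p = 0.0449) and passed at 1 of 2 probes.

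In the mitochondrial RNA granule, where GRSF1 acts, 6 of 16 tested genes fell and 0 rose (list median −0.10). This was 37.5%, beside 17.1% of all probes tested. LRPPRC, which stabilises mitochondrial mRNAs, read −0.26, −0.22, −0.28 and −0.24 (mean −0.25 ± 0.03, adjusted p = 0.0170). FASTKD1 fell by 0.20 ± 0.06 (adjusted p = 0.0279), and TRMT10C, a subunit of mitochondrial RNase P, by 0.20 ± 0.07 (adjusted p = 0.0293). Each of the latter passed at 1 of 2 probes, and the other probe had a mean of −0.10 for FASTKD1 and −0.13 for TRMT10C. Having 1 sign on all 4 arrays was a condition for naming these 3 genes, so that agreement was fixed by the naming rule. Of 15 tested genes whose mRNAs carry AU-rich elements, 1 rose and 0 fell by their brightest probes (6.67%, list median 0.06). The one that rose was MYOG, a myogenic factor whose mRNA is a known ELAVL1 target (0.30, 0.37, 0.48 and 0.16, mean 0.33 ± 0.13, adjusted p = 0.0212). HMGB1, a chromatin protein, had a mean of −0.10 at its brightest probe (limma adjusted p = 0.427), while all 6 of its probes were below 0 and 4 passed (lowest mean −0.44). With median centring the mean of that brightest probe was −0.01. FXR2, CYFIP1, HMGB1, XRN2 and PELO were named after their values were seen.

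**Figure D5:**
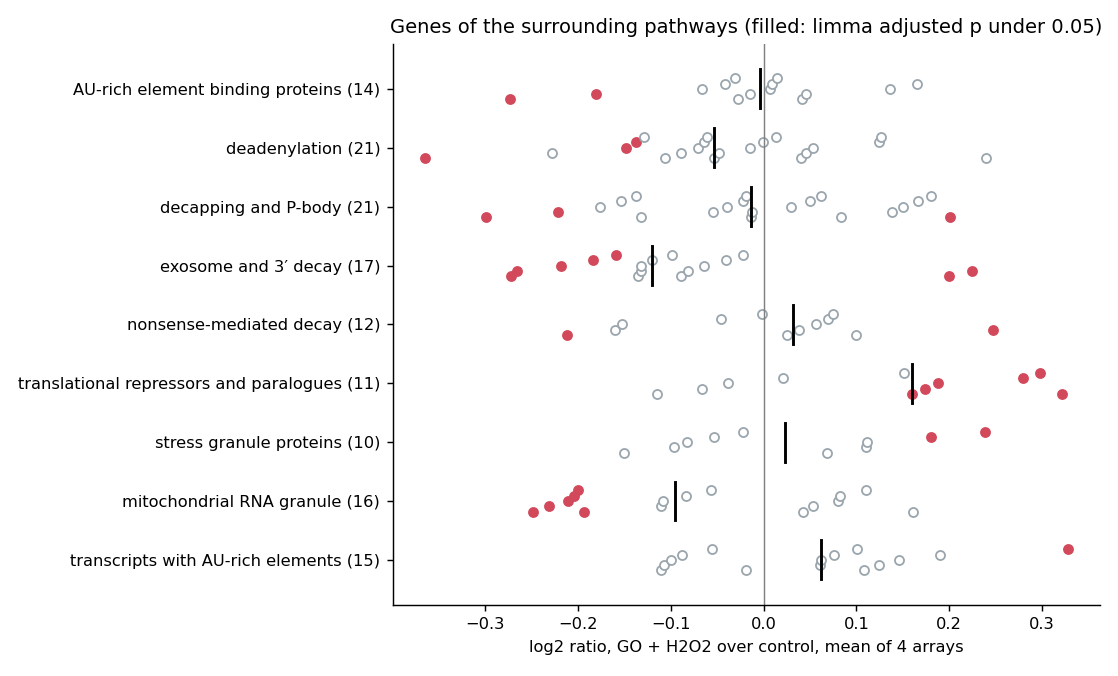
Mean log2 ratio of 4 arrays (horizontal axis) for the 137 tested genes of the 9 lists, 1 point per gene, filled where the limma adjusted p was under 0.05, with a black line at the list median and the number tested in brackets; the vertical scatter within a list has no meaning. The list of translational repressors and paralogues, which also holds splicing factors, lies furthest right (median 0.16) and the exosome list furthest left (median −0.12).

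Markers of the cells moved on the same arrays. By the 1 probe used for each gene, all 8 tested muscle markers had a mean above 0, 4 passed the threshold, and the median was 0.22. MYOG and MYH3 passed. DES (mean 0.02, above 0 on 2 arrays) and MYOD1 did not, and the 2 tested MYOD1 probes had means of −0.03 and 0.15. The log2 of the summed signal of the 8 muscle markers was 17.2 to 17.4 when treated and 16.9 to 17.1 in the control. Such a sum mostly follows the brightest markers, here MYH3 and ACTA1 (mean log2 signals 16.0 and 15.8). Of 4 tested fibroblast markers 1 passed and was higher, and their median was 0.26, no lower than that of the muscle markers. The log2 of their summed signal was 18.5 to 18.7 against 18.2 to 18.5. On replicate 2 the log2 of this sum differed by −0.03, treated minus control. COL1A2, the brightest of these markers, had 9 tested probes with means from −0.07 to 0.30. DCN was below 0 on all 4 arrays (mean −0.10). Of 2 tested immune markers 1 passed and was lower, and the log2 of their summed signal was 11.7 to 11.9 against 11.8 to 12.0. The 1 tested smooth muscle marker did not pass (7.59 to 7.65 against 7.44 to 7.66), and no adipocyte or endothelial marker was tested, 0 of 4 and 0 of 5 with a probe. PAX7 and CDH15 had no probe of that name. The part of these markers in the ratios of the RNA-binding regulators was not tested, and in such bulk samples fewer cells of a type and less RNA per cell cannot be told apart.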

How the data were processed

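Total RNA was labelled with a kit that primes at the poly(A) tail, so signals weigh the 3′ part of a transcript. Per the file headers, the authors read spot intensities with Feature Extraction (Agilent) 10.10.1.1 and deposited log10 ratios of processed red over green. The series matrix holds the same log10 ratios (largest difference 0). Here, mean intensities were corrected with normexp (offset 50) and loess within each array in limma version 3.58.1 (R version 4.3.3), with control spots at weight 0. Log2 ratios of the deposited intensities were tested against 0 (lmFit and eBayes, two-sided, Benjamini-Hochberg over 24230 probes, threshold 0.05) for probes well above background on all 4 arrays in red or in green. The procedure was checked on simulated data. Log2 signals per channel follow Aquantile scaling and are open to dye bias. Between 54.9% and 61.4% of gene spots were well above background, 0 were saturated, and ratios of pairs of arrays correlated at r = 0.174 to 0.697 across probes. Depth does not apply to arrays, and their number limits the precision. The members, lists and alternatives were chosen with earlier results of these data known. Named were all members, their paralogues, and from each list at most 3 genes per direction with the smallest adjusted p and 1 sign on all arrays. Some genes that this rule names are counted in their lists but not reported here.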

Additional observations from a re-analysis of the deposited data

Results flagged for a closer look

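In 4 probes of the members, 1 array stood apart from the other 3 by Dixon's criterion for 4 values. They were 4 of 51 sets of values examined, and chance marks about 1 in 20. An ELAVL1 probe read −0.10 on replicate 4, against 0.14 to 0.19 on the others. The brighter GRSF1 probe read −0.28 on replicate 4, against −0.34 to −0.33. A downstream SAMD4A probe read −0.20 on replicate 2, against −0.05 to −0.01. The dimmer upstream DDX6 probe read 0.12 on replicate 2, against 0.05 on each other array. No reason for these values was tested.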

How the results depend on the processing

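The count of 14 member probes past the threshold fell to 0 when arrays were median-centred and not loess-normalised (4 at an unadjusted p under 0.05), 0 with the methods' t-test (17 unadjusted) and 3 with no replicate block, that is with the channels of an array unpaired. Leaving out 1 replicate gave 0 to 13. The count of 32 list genes came to 21 from processed signals by Agilent, 21 from the values of the series matrix, 0 with median centring (5 unadjusted), 0 with the t-test (55 unadjusted), 4 with no replicate block, and 0 to 24 leaving out 1 replicate. The 4137 probes past the threshold became 12 with median centring (100% higher, beside 55.6%), 5 with the t-test, 594 with no replicate block, and 0 to 3899 leaving out 1 replicate (0 by limma without replicate 4, 6694 at an unadjusted p under 0.05). Other alternatives stayed within 1.5 times. Median centring left array medians of −0.27, 0.16, −0.03 and 0.13, which widens the spread between arrays. No called direction was reversed. Of 390 member probe values under alternatives, 14 moved by more than 1 SD, 2 of them DDX6 downstream at −1.17. Means of 2 downstream SAMD4A probes crossed 0.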
